A study of Rattus norvegicus with 4 samples.

Results

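Neonatal rat cardiomyocytes overexpressing atrogin-1 were examined for the genes of the neurohormonal receptors of the heart and of 1 of their ligands: the adrenergic receptors Adrb1, Adra1a and Adra1b, the angiotensin receptors Agtr1a and Agtr2, the endothelin receptors Ednra and Ednrb with the endothelin ligand gene Edn1, and the muscarinic receptor Chrm2. The members are all probe sets paired with 1 of these 9 genes by the annotation of the array. Of the 9 genes, 7 were paired with a probe set, giving 9 probe sets of the 31042 that were tested, and Ednra and Ednrb were paired with none in the annotation used, so that neither endothelin receptor was analysed here. The cells were primary cardiomyocyte cultures from Sprague-Dawley rats aged 1 to 2 days. They were infected for 24 hours, in medium without serum, with Ad-atrogin-1, an adenovirus that carries atrogin-1 together with GFP (2 arrays), or with Ad-GFP, an adenovirus that carries GFP alone (2 arrays). Both groups thus carried adenovirus and GFP, and there was no uninfected group. Signals come from Affymetrix rat genome arrays and are on a log2 scale, summarised by the authors with robust multi-array average (RMA). Replicates are labelled as biological and the methods describe RNA from independent experiments, but which array belongs to which experiment is not given in the sources used here, and p-values measure the spread between these arrays. The cultures are of primary heart tissue and can hold cells other than cardiomyocytes.

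Adrenergic, angiotensin, endothelin and muscarinic receptors are G protein-coupled receptors. The beta-1 receptor acts mainly through Gs and cyclic AMP to raise the rate and force of the heartbeat, and the M2 receptor acts through Gi and opposes it. The alpha-1, AT1 and endothelin receptors act mainly through Gq and phospholipase C, and their agonists phenylephrine, angiotensin II and endothelin-1 are classical inducers of hypertrophy in cultured neonatal cardiomyocytes. The AT2 receptor is abundant in fetal tissue and often acts against AT1. Signals are ended by G protein-coupled receptor kinases (GRKs), arrestins and RGS proteins, which speed up the switching off of G proteins.

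Promoter windows, the 250 bases before the annotated start, were read from RefSeq (build GRCr8) for 8 of the 9 genes; the table holds none for Adra1a. They were searched on both strands for 5 motifs. The TATA box was searched as TATAAA, and the site of GATA factors was searched as AGATAA. For the AP-1 factors the letters were TGANTCA, where N is any base. The core of a cyclic AMP response element was TGACG, and the site of the muscle factor MEF2 was the last of the 5. No 2 matches in the windows shown share a base. The windows of Edn1, Adrb1 and Agtr1a are shown because they are the ones, among the measured genes, that hold a match, and capitals mark the matches.
Edn1 (chr17:22666688-22666937, minus strand): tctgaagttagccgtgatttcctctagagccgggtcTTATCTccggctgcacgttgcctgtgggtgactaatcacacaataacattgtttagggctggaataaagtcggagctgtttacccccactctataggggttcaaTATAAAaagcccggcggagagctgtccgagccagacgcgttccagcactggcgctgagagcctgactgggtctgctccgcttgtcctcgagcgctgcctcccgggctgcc
Adrb1 (chr1:265776853-265777102, plus strand): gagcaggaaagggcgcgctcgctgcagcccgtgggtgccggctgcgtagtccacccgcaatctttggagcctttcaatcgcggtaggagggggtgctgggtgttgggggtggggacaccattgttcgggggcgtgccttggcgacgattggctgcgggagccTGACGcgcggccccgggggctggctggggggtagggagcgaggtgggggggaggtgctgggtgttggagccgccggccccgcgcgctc
Agtr1a (chr17:34435433-34435682, minus strand): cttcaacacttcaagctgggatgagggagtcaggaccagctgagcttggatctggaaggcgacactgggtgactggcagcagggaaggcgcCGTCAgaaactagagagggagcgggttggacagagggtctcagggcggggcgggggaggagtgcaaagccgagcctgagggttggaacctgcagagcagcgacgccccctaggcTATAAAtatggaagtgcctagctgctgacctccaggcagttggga
The Edn1 window holds TATAAA at 110 to 105 bases before the start and, on the opposite strand, the GATA motif at 214 to 209 bases before it. The Adrb1 window holds TGACG at 88 to 84 bases before the start and no TATAAA, and 72.0% of its bases are G or C, against a median of 51.2% over all windows. The Agtr1a window holds TATAAA at 45 to 40 bases before the start and TGACG on the opposite strand at 159 to 155. The windows of Adra1b, Agtr2, Ednra and Chrm2 hold no match, and that of Ednrb holds TGACG 1 time, on the opposite strand. Over the 33469 windows of the table, 12.9% hold the TATA box, 10.3% the GATA motif, 6.34% the AP-1 motif, 18.2% the cyclic AMP core and 3.41% the MEF2 motif. A match is a description of the letters and not a binding site.

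No probe set of the 7 measured genes passed the test for a change in Ad-atrogin-1 cardiomyocytes. A probe set was called at a Benjamini-Hochberg adjusted p under 0.05 from limma, over all probe sets, and a change of at least 2-fold. Of the 9 probe sets 0 were called, against 0.274% of all probe sets (77 or 0.248% higher and 8 or 0.0258% lower). At an unadjusted p under 0.05 it was also 0 of 9, against 11.2% of all probe sets (5.6% higher and 5.61% lower). The adjusted p lay between 0.601 and 0.990. The log2 ratio, the mean log2 signal in Ad-atrogin-1 minus that in Ad-GFP (the log2 fold change of the plots), ran from -0.43 for Edn1 to 0.23 for Adrb1, with a median of 0.09, against -0.01 over all probe sets. Sizes regardless of sign had a median of 0.09 on the log2 scale for the 9 probe sets and 0.13 for all. The 95% interval of the log2 ratio lay within 2-fold in either direction for 8 of the 9 probe sets, all but that of Edn1, and for 93.9% of all probe sets. With 2 arrays per group an exact permutation test cannot give a two-sided p below 0.333, so the calls rest on the moderated test of limma, which shares the variance over all probe sets. The overexpressed gene was checked: Fbxo32, which encodes atrogin-1, had log2 signals of 13.55 and 13.47 on the Ad-atrogin-1 arrays, against 5.24 and 5.04 on the Ad-GFP arrays (adjusted p = 7.67e-05, limma). Viral and endogenous Fbxo32 RNA are read together in that signal.

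**Figure D1:**
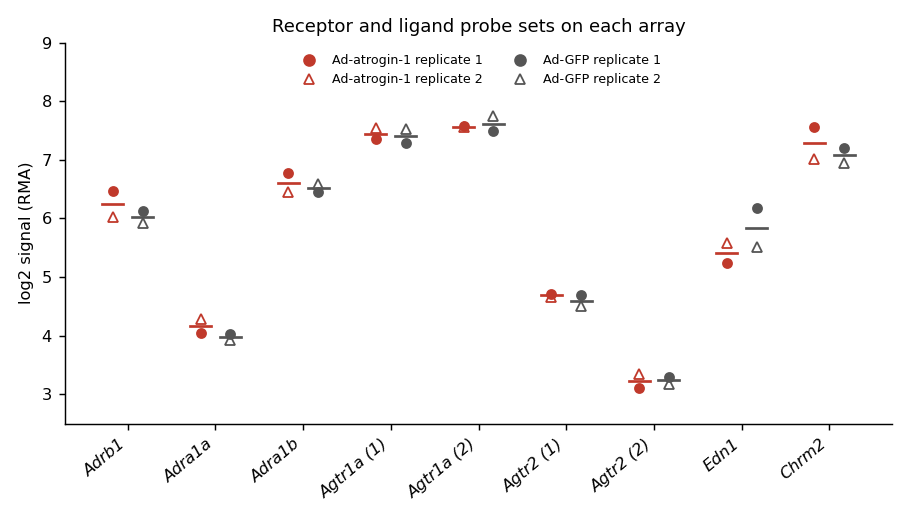
Log2 signal (vertical axis) of each receptor and ligand probe set on the 4 arrays, with Ad-atrogin-1 in red to the left of Ad-GFP in grey, filled circles for replicate 1, open triangles for replicate 2 and lines at the group means. Where a gene has more than 1 probe set, these are numbered in the order in which the text gives them. The groups overlap at every probe set except that of Adra1a, and the spread is widest for Edn1 in Ad-GFP, between 6.18 and 5.51.

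Among the adrenergic receptors, Adrb1, the main receptor through which noradrenaline drives the heart muscle cell, had log2 signals of 6.48 and 6.03 in Ad-atrogin-1 cardiomyocytes, against 6.12 and 5.92 in Ad-GFP cardiomyocytes (probe set 1369806_at). The means were 6.25 ± 0.31 in Ad-atrogin-1 and 6.02 ± 0.14 in Ad-GFP (SD, n = 2 each). Ad-atrogin-1 replicate 1 was the highest of the 4 arrays, and Ad-atrogin-1 replicate 2 lay between the Ad-GFP arrays. The log2 ratio was 0.23 (standard error, SE, 0.18, 95% interval -0.22 to 0.68, adjusted p = 0.727, limma), and it was 0.01 without Ad-atrogin-1 replicate 1. In folds, the interval for Adrb1 reaches 1.61-fold higher at its upper end.

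Adra1b, an alpha-1 receptor that couples to Gq, had log2 signals of 6.78 and 6.45 in Ad-atrogin-1 cardiomyocytes, against 6.45 and 6.59 in Ad-GFP cardiomyocytes (probe set 1368574_at). Again Ad-atrogin-1 replicate 1 was the highest array, while Ad-atrogin-1 replicate 2 was the lowest, so that the Ad-GFP arrays lay inside the range of the other group. The log2 ratio was 0.09 (SE 0.15, 95% interval -0.29 to 0.48, adjusted p = 0.897, limma).

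Adra1a, the other alpha-1 receptor gene of the set, had log2 signals of 4.05 and 4.28 in Ad-atrogin-1 cardiomyocytes, against 4.04 and 3.93 in Ad-GFP cardiomyocytes (probe set 1369797_at). This was the 1 probe set of the 9 at which the groups did not overlap, with 4.05 just above 4.04, and groups did not overlap at 40.4% of all probe sets (both Ad-atrogin-1 arrays higher at 18.3% and lower at 22.1%). The log2 ratio was 0.18 (SE 0.14, 95% interval -0.16 to 0.52, adjusted p = 0.705, limma). All 4 signals lie near the lower quartile of the arrays, which is 3.88 to 3.94, and no background level was estimated, so a fold change at such signals is not an exact size.

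The angiotensin receptors were each measured by 2 probe sets. Agtr1a encodes the AT1 receptor, which mediates most known effects of angiotensin II on blood pressure and cell growth. Its first probe set (1369291_at) had log2 signals of 7.35 and 7.55 in Ad-atrogin-1 cardiomyocytes, against 7.30 and 7.53 in Ad-GFP cardiomyocytes. Its second (1384240_at) had 7.57 and 7.56 in Ad-atrogin-1, against 7.50 and 7.75 in Ad-GFP. At both probe sets the groups overlapped, and at the second both Ad-atrogin-1 arrays lay between the Ad-GFP arrays. The log2 ratios were 0.04 (SE 0.14, 95% interval -0.32 to 0.39) and -0.06 (SE 0.13, 95% interval -0.39 to 0.28), with adjusted p of 0.963 and 0.933 from limma. In folds, the intervals for Agtr1a reach 1.31-fold at most.

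Agtr2 encodes the AT2 receptor. Its first probe set (1369711_at) had log2 signals of 4.72 and 4.67 in Ad-atrogin-1 cardiomyocytes, against 4.69 and 4.51 in Ad-GFP cardiomyocytes, with a log2 ratio of 0.09 (SE 0.12, 95% interval -0.22 to 0.40, adjusted p = 0.861, limma). Its second (1398288_at) had 3.11 and 3.34 in Ad-atrogin-1, against 3.30 and 3.18 in Ad-GFP, with a log2 ratio of -0.01 (SE 0.14, 95% interval -0.35 to 0.32, adjusted p = 0.990, limma). The signals of the second probe set lie under the lower quartile of every array. The groups overlapped at both.

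Edn1 encodes the precursor of endothelin-1, a peptide made by endothelial cells and, in culture, also by cardiomyocytes. It had log2 signals of 5.24 and 5.58 in Ad-atrogin-1 cardiomyocytes, against 6.18 and 5.51 in Ad-GFP cardiomyocytes (probe set 1369519_at). Ad-GFP replicate 1 stood above the other 3 arrays, and Ad-GFP replicate 2 lay between the Ad-atrogin-1 arrays. The means were 5.41 ± 0.24 in Ad-atrogin-1 and 5.84 ± 0.47 in Ad-GFP (SD, n = 2 each), and the log2 ratio was -0.43 (SE 0.25, 95% interval -1.05 to 0.19, adjusted p = 0.601, limma). Its size rested on single arrays: it was -0.10 without Ad-GFP replicate 1 and -0.76 without Ad-GFP replicate 2, where the unadjusted p was 0.0272 and the adjusted p 0.587. A decrease of Edn1 by 2-fold is inside the interval, so these arrays do not settle whether the gene changed. Edn1 is the member whose promoter window above holds both the TATA box and the GATA motif, and the part of these motifs in its values was not tested.

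Chrm2 encodes the M2 receptor, through which the vagus nerve slows the heart. It had log2 signals of 7.56 and 7.01 in Ad-atrogin-1 cardiomyocytes, against 7.20 and 6.95 in Ad-GFP cardiomyocytes (probe set 1369245_at). Ad-atrogin-1 replicate 1 was the highest array, as for Adrb1 and Adra1b, and Ad-atrogin-1 replicate 2 lay between the Ad-GFP arrays. The log2 ratio was 0.21 (SE 0.21, 95% interval -0.31 to 0.73, adjusted p = 0.797, limma), and it was -0.06 without Ad-atrogin-1 replicate 1. Ad-atrogin-1 replicate 1 was the highest of the 4 arrays at 4 of the 9 probe sets (Adrb1, Adra1b, the first of Agtr2, and Chrm2), against 22.0% of all probe sets.

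**Figure D2:**
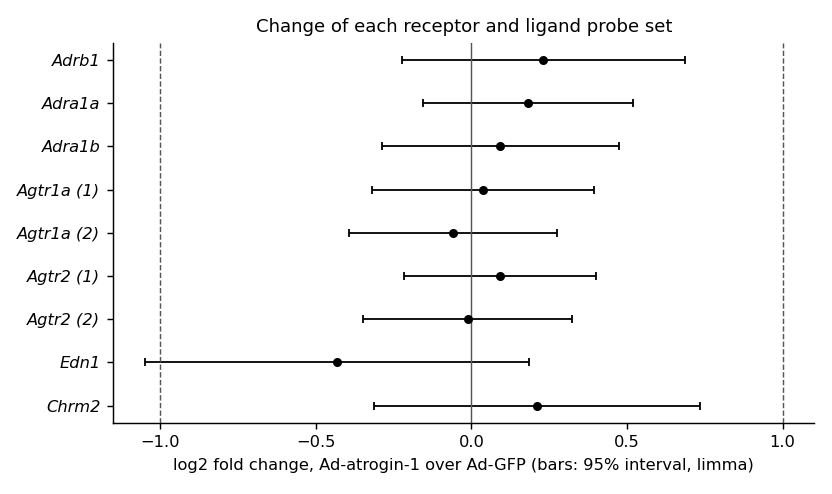
Log2 ratio of each receptor and ligand probe set (Ad-atrogin-1 over Ad-GFP, horizontal axis) with its 95% interval from limma; dashed lines mark 2-fold. Every interval spans 0, and that of Edn1, from -1.05 to 0.19, is the 1 that passes a dashed line.

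The cultures were checked for cardiomyocyte markers and for those of other cells of the heart. The troponin gene Tnnt2 had log2 signals of 13.01 and 12.81 in Ad-atrogin-1 and 12.99 and 13.05 in Ad-GFP at 1 of its probe sets, so RNA of the labelled cell type was present; the other probe set had 4.09 and 4.34 in Ad-atrogin-1 and 4.09 and 3.69 in Ad-GFP. The mean log2 signal over the 19 probe sets of 12 cardiomyocyte marker genes was 10.24 and 9.85 on the Ad-atrogin-1 arrays, against 9.63 and 9.79 on the Ad-GFP arrays. Both Ad-atrogin-1 means lay above both Ad-GFP means, and the median log2 ratio of the list was 0.34. Both Ad-atrogin-1 arrays were above both Ad-GFP arrays at 11 of the 19 probe sets and below them at 1. Over all probe sets these shares were 18.3% and 22.1%. The mean of the list was highest on Ad-atrogin-1 replicate 1, the array on which Adrb1, Adra1b and Chrm2 were highest too. The part of cardiomyocyte content in their values was not tested. Of these 19 probe sets 0 were called and 6 (31.6%) had an unadjusted p under 0.05, all 6 toward higher signals. More than 1 of the 6 belong to the same gene. Over all probe sets the share was 11.2%, with 5.6% higher. It was 3 of 11 in the smooth muscle list, 2 of 9 in the epithelial list and 12 of 89 (13.5%) over all marker lists. Endothelial cells are the main source of endothelin-1 in the body, and the mean over the 15 probe sets of 11 endothelial marker genes was 5.29 and 5.94 in Ad-atrogin-1, against 5.35 and 5.70 in Ad-GFP, lower on replicate 1 of both groups. Edn1 was lowest on Ad-atrogin-1 replicate 1 and highest on Ad-GFP replicate 1, and the part of endothelial content in its values was not tested. The means of the fibroblast, smooth muscle, macrophage and Schwann lists overlapped between the groups, that of the epithelial list was 4.33 and 4.39 in Ad-atrogin-1, against 4.00 and 4.21 in Ad-GFP, and 0 of the 89 marker probe sets were called. The epithelial list had a median log2 ratio of -0.07 over its 9 probe sets. Its keratin gene Krt19 had log2 signals of 7.89 and 8.09 in Ad-atrogin-1, against 3.20 and 5.48 in Ad-GFP (log2 ratio 3.65, adjusted p = 0.141, limma), and Krt18 had a log2 ratio of -0.83 (adjusted p = 0.401). In RNA from whole cultures, a change in the number of cells of a type and a change in RNA per cell cannot be told apart.

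**Figure D3:**
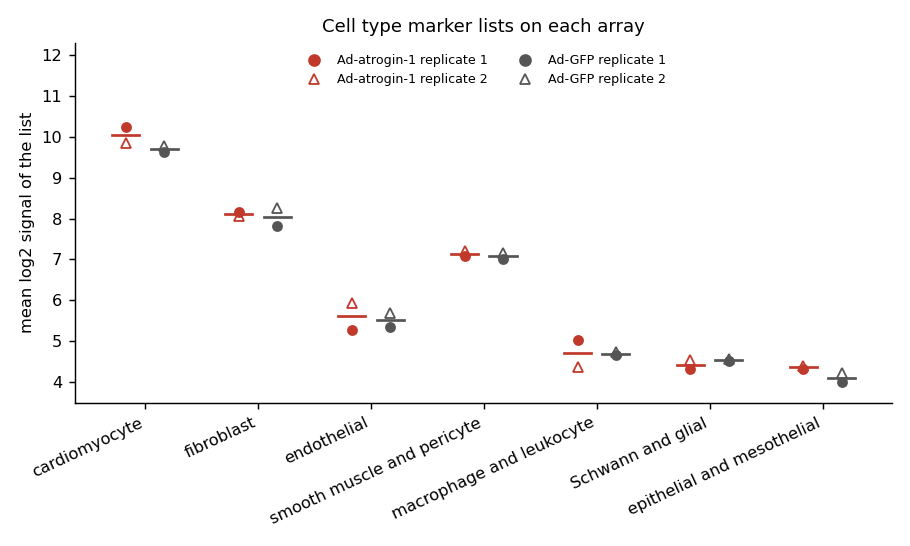
Mean log2 signal (vertical axis) of each list of cell type markers on the 4 arrays, with Ad-atrogin-1 in red to the left of Ad-GFP in grey and lines at the group means. The cardiomyocyte list is highest on Ad-atrogin-1 replicate 1, at 10.24, and the endothelial list is lowest there, at 5.29.

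Other genes of the same pathways were listed by role, 90 genes in 10 lists, of which 83 were measured by 129 probe sets. None of the 129 was called, and 19 (14.7%) had an unadjusted p under 0.05, 9 higher and 10 lower, against 11.2% of all probe sets. Of the 19, 6 were in the RGS list of 14 probe sets. All 10 lists were chosen with earlier results of these data known, and Rgs5 after its values were seen. The median log2 ratio of the 129 was -0.03.

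Of the other adrenergic receptors, Adra2a had the lowest p. The gene encodes an alpha-2 receptor, which couples to Gi and is best known for holding back noradrenaline release from nerve endings. Its probe set with the lower p averaged 4.89 ± 0.28 in Ad-atrogin-1 cardiomyocytes and 5.97 ± 0.04 in Ad-GFP cardiomyocytes (SD, n = 2 each), a log2 ratio of -1.08 (SE 0.16, adjusted p = 0.0908, limma). The other Adra2a probe set had 4.18 and 4.05 in Ad-atrogin-1, against 4.85 and 4.57 in Ad-GFP (-0.60, adjusted p = 0.234). The groups did not overlap at either probe set, and neither passed the adjusted threshold. Adra1d, the third alpha-1 receptor gene, had a log2 ratio of -0.32 (SE 0.12, adjusted p = 0.415). In all, 3 of the 8 probe sets of this list had an unadjusted p under 0.05, all toward lower signals. They were of Adra2a and Adra1d only, and the share of all probe sets was 11.2%, with 5.61% lower. Of the 5 probe sets of the other muscarinic receptors none had an unadjusted p under 0.05. The log2 ratio was 0.28 for Chrm1, which had the lowest p, and 0.10 for Chrm5, the brightest.

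In the angiotensin system, the converting enzyme gene Ace, whose product makes angiotensin II, had log2 signals of 5.59 and 5.04 in Ad-atrogin-1 cardiomyocytes, against 5.90 and 5.97 in Ad-GFP cardiomyocytes (-0.62, SE 0.20, adjusted p = 0.336, limma). That probe set was the 1 of 13 (7.69%) with an unadjusted p under 0.05, against 11.2% of all probe sets. The other Ace probe set had -0.30 (adjusted p = 0.592, limma). Atp6ap2, the prorenin receptor and the brightest of the list, had -0.05 and 0.02 at its 2 probe sets. The probe set of Agtr1b, the close rodent copy of Agtr1a, had signals of 2.80 and 2.80 in Ad-atrogin-1, against 2.70 and 2.68 in Ad-GFP, all under the lower quartile of the arrays. Of the endothelin list, Ece1, whose product cuts the endothelin precursor to its active form, had the lowest p and the highest signal, with log2 signals of 7.44 and 7.53 in Ad-atrogin-1, against 7.68 and 8.12 in Ad-GFP (-0.41, SE 0.17, adjusted p = 0.473).

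Downstream of the receptors, the brightest of the G protein alpha subunit genes, Gnas, which encodes Gs, had a log2 ratio of 0.03, and its other probe sets had 0.15 and -0.06. Gna12, with the lowest p, had 0.28, while its other probe set had -0.09 (adjusted p = 0.480 and 0.888, limma). In this list 0 of 10 probe sets had an unadjusted p under 0.05, against 11.2% of all probe sets. Among the beta and gamma subunits it was 2 of 18, Gnb5 with the lowest p at 0.50 and Gnb4 at -0.36. The median of that list was -0.11, and the brightest, Gng5, had 0.10, with -0.11 and 0.03 at its other probe sets. Of the phospholipase C and inositol trisphosphate genes, the receptor channel gene Itpr2 had -0.35 and -0.20 at its 2 probe sets and the brightest, Plcb4, -0.03 and 0.04. Of the cyclic AMP genes, Pde4b, a phosphodiesterase that breaks down cyclic AMP, had log2 ratios of -0.98 and -0.99 at its 2 probe sets (adjusted p = 0.179 and 0.187, limma). Both Ad-atrogin-1 arrays were below both Ad-GFP arrays at each, as at 22.1% of all probe sets. In that list 5 of 32 probe sets (15.6%) had an unadjusted p under 0.05, against 11.2% of all probe sets. The 2 lower ones were those of Pde4b. The 3 higher ones were of Pkia and of Pde3b, another phosphodiesterase gene, which had 0.43. The brightest of that list, the protein kinase A subunit gene Prkar1a, had 0.25, with 0.27 and 0.08 at its other probe sets.

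Among the genes that end the signal, Grk5, a kinase of active receptors, had log2 signals of 6.99 and 6.71 in Ad-atrogin-1 cardiomyocytes, against 7.50 and 7.49 in Ad-GFP cardiomyocytes (-0.64, SE 0.14, adjusted p = 0.187, limma), and the brightest GRK, Grk6, had 0.29, with 0.08 and -0.03 at its other probe sets. The RGS list, chosen with earlier results of these data known, had 6 of 14 probe sets with an unadjusted p under 0.05, 5 of them higher. Over all probe sets the share was 11.2%, with 5.6% higher. The higher ones were of Rgs4, Rgs2 and Rgs5 only. The lower one was of Rgs3 (-0.35), with 0.32 and 0.01 at its other probe sets. The list median of 0.17 was above the -0.01 of all probe sets. Rgs4, which acts on Gq and Gi, had log2 signals of 7.44 and 7.84 in Ad-atrogin-1, against 6.48 and 6.36 in Ad-GFP, 2.34-fold (log2 ratio 1.22, SE 0.17, adjusted p = 0.0776, limma). Its other probe set had 7.70 and 8.09 in Ad-atrogin-1, against 6.76 and 6.85 in Ad-GFP (1.09, adjusted p = 0.0923). The brightest of the list, Rgs2, which acts mainly on Gq, had 0.51 and 0.44 at its 2 probe sets. Rgs5, which was chosen after its values were seen, had 0.98 (adjusted p = 0.135). None of these genes passed the adjusted threshold. At an unadjusted p under 0.05 from limma with at least 2-fold, 3 of the 129 probe sets in the 10 lists were called. They were both of Rgs4 and 1 of Adra2a. Over all 31042 probe sets the same thresholds called 217 higher and 78 lower.

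**Figure D4:**
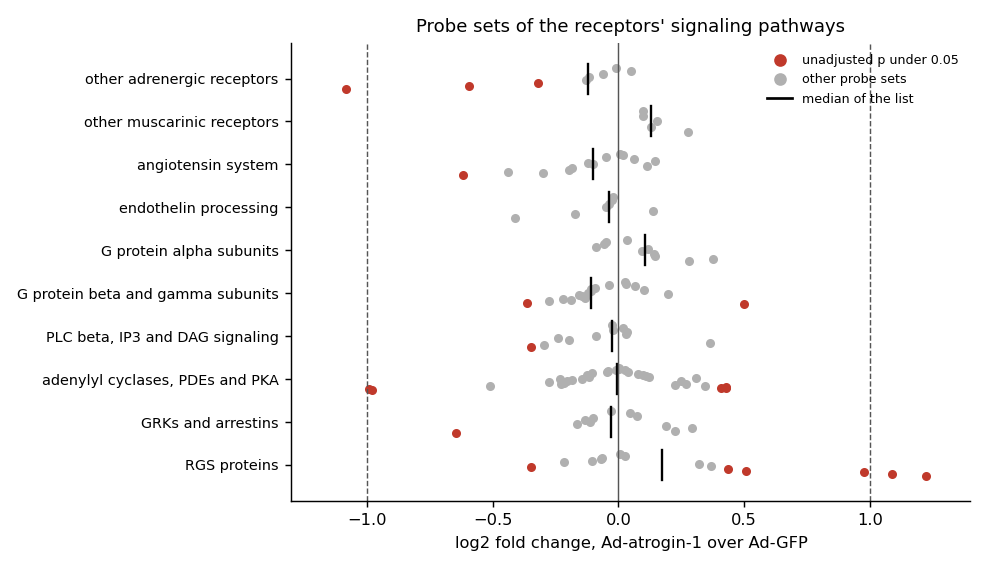
Log2 ratio (Ad-atrogin-1 over Ad-GFP, horizontal axis) of each of the 129 probe sets of the 10 pathway lists (rows), in red where the unadjusted p was under 0.05, with black lines at list medians and dashed lines at 2-fold. The 3 points past a dashed line are both probe sets of Rgs4 on the right and 1 of Adra2a on the left, and no point passed the adjusted threshold.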

How the data were processed

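Gene expression was measured in 2 Ad-atrogin-1 and 2 Ad-GFP samples, with 1 Affymetrix array per sample. Per the methods, the authors summarised the array intensities by RMA in GeneSpring GX, and the deposited values are log2 signals per probe set, used here as deposited. Of the rows, 57 were array controls and were not tested; no filter on low signal was set. Probe sets were paired with genes through the platform annotation: 20826 with 1 gene, 436 with several and 9780 with none; symbols were updated through gene identifiers. Differences between the groups were fitted with lmFit and eBayes of limma 3.58.1 (R 4.3.3; two-sided, without a block), with Benjamini-Hochberg adjustment over 31042 probe sets; the fit has 2 residual degrees of freedom and a prior of 3.65. Standard errors and 95% intervals are those of the moderated fit. Precision is limited by the number of arrays.

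The genes named are all members, Fbxo32, and in each pathway list the gene with the lowest p and the brightest one, where none is called. Agtr1b, the copy of Agtr1a, Gnb4, Rgs3, Rgs5, Pkia, Pde3b and the markers Tnnt2, Krt19 and Krt18 fall outside this rule. The members and the lists were chosen with earlier results of these data known. Alternatives were array centring, further quantile normalization, only the brightest 60% of probe sets, other priors, the methods' t-test, other thresholds, the replicate number as a block, 1 probe set per gene, and each array left out. Promoter sequences are from RefSeq, build GRCr8. Figures were drawn with matplotlib 3.10.9.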

Additional observations from a re-analysis of the deposited data

How the results depend on the processing

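Each of the 9 member probe sets was refitted under the other settings that could hold it. Of 103 refitted values 0 were called, the lowest adjusted p was 0.518 (limma, Edn1, with only the brightest 60% of probe sets tested), and 95 kept their sign. The second Agtr2 probe set turned to 0.01 (0.00903) after quantile normalization, and Gnas to -0.036. With single arrays left out the log2 ratio ran from -0.077 to 0.15 and from -0.18 to 0.068 for the 2 Agtr1a probe sets, from -0.13 to 0.10 for the second and from 0.0029 to 0.18 for the first Agtr2 probe set, from -0.071 to 0.26 for Adra1b, from -0.061 to 0.48 for Chrm2, from -0.76 to -0.10 for Edn1, from 0.0085 to 0.45 for Adrb1 and from 0.06 to 0.30 for Adra1a. The range was -0.63 to -0.19 for Ece1, -0.89 to -0.35 for Ace, 0.06 to 0.43 for Prkar1a, 0.13 to 0.46 for Grk6, 0.16 to 0.40 for Chrm1 and 0.32 to 0.68 for Gnb5. Signs also turned for Chrm5 (-0.066 to 0.26), Gnas (-0.0083 to 0.074), Atp6ap2 (-0.33 to 0.23) and Plcb4 (-0.22 to 0.16). With an array left out, 0 to 1 member probe sets had an unadjusted p under 0.05 (Edn1, without Ad-GFP replicate 2), and the groups did not overlap at 4 to 7 of the 9, against 68.6% to 70.9% of all probe sets on the same 3 arrays.

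Over all probe sets, 77 were called higher and 8 lower. Left-out arrays gave 0 in both directions, with limma, and Fbxo32 then had log2 ratios of 8.27 to 8.47 with adjusted p of 0.0716 to 0.224. The methods' t-test also gave 0 and 0 with adjusted p (Fbxo32 0.421), and 158 and 33 with unadjusted p under 0.05 and 2-fold; limma with that threshold gave 217 and 78. Lower calls were 14 with arrays centred, 14 after quantile normalization and 13 among the brightest 60%, where 0 member groups stayed apart because Adra1a was not tested. Both unadjusted thresholds called 3 pathway probe sets. The cause of the other changes was not tested. The replicate numbers do not pair the arrays by the labels, and the differences between replicates correlated at 0.04 between the groups; with the replicate block limma called 1 probe set higher, 0 lower and no member. Signals near or under the lower quartile, as for Adra1a and Agtr2, limit what these arrays can show.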
